A study of Saccharomyces cerevisiae with 2 samples.

Results

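Regular nucleosome arrays are stretches of chromatin in which one nucleosome follows the next at nearly the same distance. Here an array was a maximal run of 6 or more nucleosome calls in which every adjacent distance lay from 147 to 185 bp, the length of DNA on a nucleosome core plus a linker of at most 38 bp. With the reads of 2 yeast libraries added, 148 of 30074 maximal runs on the 16 nuclear chromosomes met this rule, single calls counted as runs. They held 957 of 44893 calls (2.13%) and spanned 133560 bp (1.11% of the nuclear genome). The arrays were chosen by measured values, the heights and distances of the calls, so that their length and spacing in the added reads describe the choice and were not tested. The only values independent of that choice come from arrays chosen in 1 library and measured in the other. Those arrays only partly overlapped the 148, so their values are not measurements of the 148 themselves.

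The budding yeast Saccharomyces cerevisiae was grown in rich medium (YPD) to an A600 of 1.5, fixed for 30 min in 1% formaldehyde, and digested for 20 min with 3.5 units of micrococcal nuclease (MNase) per aliquot. MNase cuts linker DNA faster than DNA wrapped around histones, and the band near 147 bp was cut out of a gel and read from 1 end in 36 cycles. Both libraries, replicate 1 and replicate 2, came from this single condition, with no further treatment or genotype named in the labels. The study's list of data sets names the laboratory strain BY, while the labels give no strain and do not say whether the second library was a biological or a technical replicate. Replicate 1 held 21973866 reads (21957427 nuclear) and replicate 2 held 19288900 reads (19261599 nuclear), a mean of 3.42 reads per bp in the sum. With 1 condition and 2 libraries, no test over samples was possible, and every comparison below is a description with the value of each library.

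In yeast, arrays typically start at the first nucleosome of a gene, beside a nucleosome-depleted promoter, and run into the transcribed region. Remodelers that space nucleosomes, such as Isw1, Isw2, Chd1 and INO80, set and hold the distances, while DNA-binding factors and DNA sequence help to place the first nucleosome. The gene annotation at hand was of another genome assembly than the reads, so the arrays are given by position and were not joined to genes, promoters or sequence.

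In the added reads, runs became rarer at a nearly constant rate with each further nucleosome up to 6 calls. There were 20530 single calls, 6187 pairs, 2105 runs of 3, 803 runs of 4 and 301 runs of 5 calls. The arrays followed with 99 of 6 calls, 35 of 7, 9 of 8, 4 of 9 and 1 of 10 calls. Of all 44877 adjacent distances, 33% lay in the range, and after a distance in the range the next one was in the range in 35.6% of 14818 cases, against 31.8% of 30043 cases after a distance outside it. Both libraries had this order, with 36.4% against 33.3% in replicate 1 and 33.4% against 30.1% in replicate 2. Of the 148 runs that had reached 6 calls, 49 (33.1%) went on to a further one, and of 9544 runs that had reached 2 calls, 3357 (35.2%) did. The number of arrays therefore showed no step at 6 calls. Just outside the limit, the 301 runs of 5 had a median distance of 164 bp, the same as the 99 arrays of 6. With the median height taken within each run first, the medians over these runs were 2.18 and 2.30 times the nuclear mean.

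**Figure D1:**
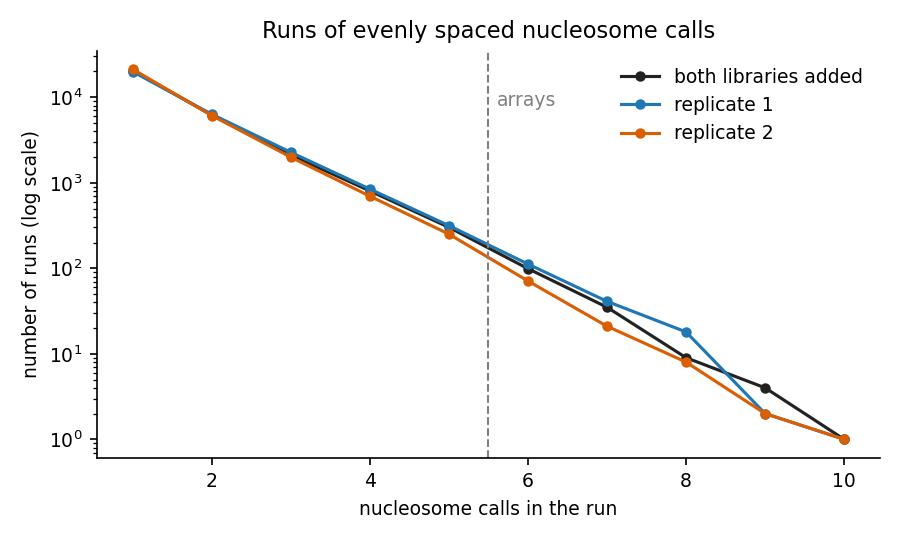
Number of maximal runs (log axis) against the number of calls in a run, for both libraries added (black), replicate 1 (blue) and replicate 2 (orange). The lines fall steadily up to 7 calls, beyond which few runs remain (18, 2 and 1 of 8, 9 and 10 calls in replicate 1), and the dashed line marks the limit beyond which runs were called arrays, 148 in the sum.

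Inside the arrays, 809 distances had a median of 164 bp and a mean of 165 ± 10.9 bp (SD). The interquartile range was 156 to 174 bp. In bins of 3 bp, the distances filled the whole range allowed by the rule, with 5.81% to 10.5% of them in each bin. That range itself limits the median and the SD, which alone do not show a regular repeat. With linkers up to 30 bp the median was 161 bp, and with linkers up to 50 bp it was 166 bp. All 14819 distances in the range had a median of 165 bp, within 1 bp of the arrays. Single arrays had mean distances from 152.8 to 174.6 bp, with a median of 165.1 bp, and the SD within an array ran from 4.60 to 17.5 bp with a median of 11.1 bp. Neighbouring distances in an array differed by a median of 12 bp (n = 661), against 11 bp in runs of 3 to 5 calls (n = 4614). By length, the median distance was 164 bp in arrays of 6, 163 bp in arrays of 7, 164 bp in arrays of 8, 165.5 bp in arrays of 9 and 162 bp in the array of 10. An array of 6 spanned a median of 828 bp from the first to the last call, and the array of 10 spanned 1476 bp. Close to the limits of the rule, 64 distances lay from 147 to 149 bp and 49 from 183 to 185 bp.

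**Figure D2:**
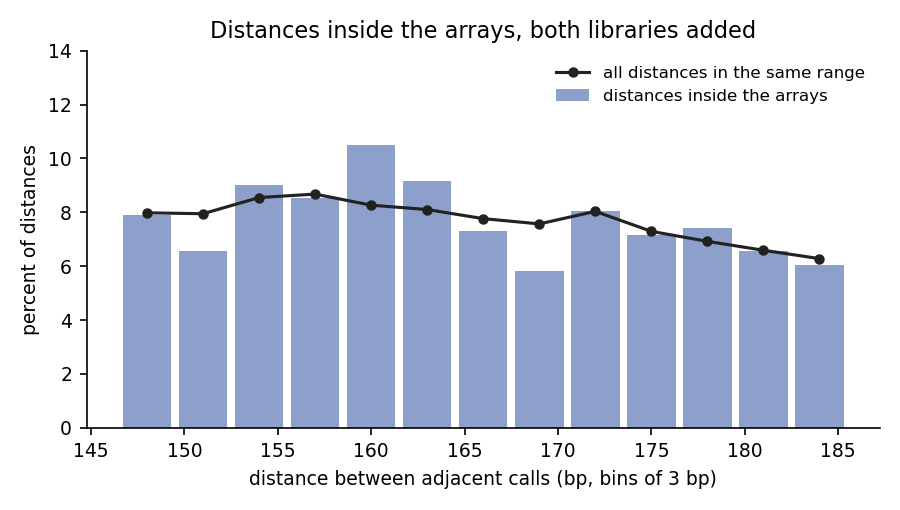
Percent of the distances inside arrays (bars) and of all adjacent distances from 147 to 185 bp (line) in bins of 3 bp, both libraries added. The fullest bin of the arrays, 159 to 161 bp, held 85 distances (10.5%), where all distances in the range had 8.27%.

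The density at a call, its height, is given as a multiple of the nuclear mean, and the reads of a call are those whose estimated centre lay within 73 bp of it. Array calls had a median height of 2.30 (interquartile range 1.41 to 3.66), above 1.98 for all calls. The medians of the classes rose with the length of the run, from 1.91 for single calls through 1.97 for pairs and 2.11 for runs of 3 to 5 calls. Height was itself used by the rule, since a call under the minimum height ended a run, so this order was not tested. Among the arrays there was no steady rise. Medians over all calls of a length were 2.35 for 6 calls, 2.30 for 7, 1.90 for 8, 2.09 for 9 and 3.20 for the array of 10. An array call held a median of 360 reads in replicate 1 and 311 in replicate 2, against 319 and 277 for all calls. The rule required a minimum height of 0.5 at every call, and 11 of the 957 array calls were under 0.6. The heights within an array were uneven, and the highest call was a median of 4.47 times the lowest, from 1.50 to 13.0 times. Height was similar from end to centre, at 2.32 for the outermost calls, 2.40 for the next and 2.19 for those further in.

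Sharpness, the share of the reads of a call that lay within 20 bp of it, differed little between array calls and others. The median was 54.7% in replicate 1 and 57.7% in replicate 2, against 53.5% and 57.2% over all calls. The distance between the 5′ ends of the strands, which reflects fragment length, was 88 bp around array calls of replicate 1 and 84 bp in replicate 2, and 90 and 86 bp around other calls. All were shorter than the excised band near 147 bp, and the reason was not tested. The chi-square between the libraries, in which any amplified copies would count as separate reads, had a mean of 11.6 and a median of 4.80 per array call, against 13.2 and 4.42 at other calls. The log2 ratio of replicate 2 to replicate 1, scaled to nuclear reads, ran from −0.68 to 0.39 over the arrays, with a median of −0.02.

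The longest array lay on chromosome 12 from 260981 to 262457 (sacCer2, as deposited) and had 10 calls. Its 10 calls held, from the first to the last, 756, 386, 208, 496, 469, 403, 625, 298, 158 and 490 reads in replicate 1. In replicate 2 they held 608, 400, 139, 486, 637, 373, 733, 281, 118 and 459 reads. The same calls were full and the same were sparse in both libraries, with the first and the seventh among the fullest and the third and the ninth the emptiest. Successive distances were 154, 157, 180, 173, 162, 182, 155, 147 and 166 bp, an SD of 12.2 bp, so that the longest array was not the most even. Each call had one within 4 bp in each library alone. Beyond its ends the next calls followed at 243 and 214 bp.

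**Figure D3:**
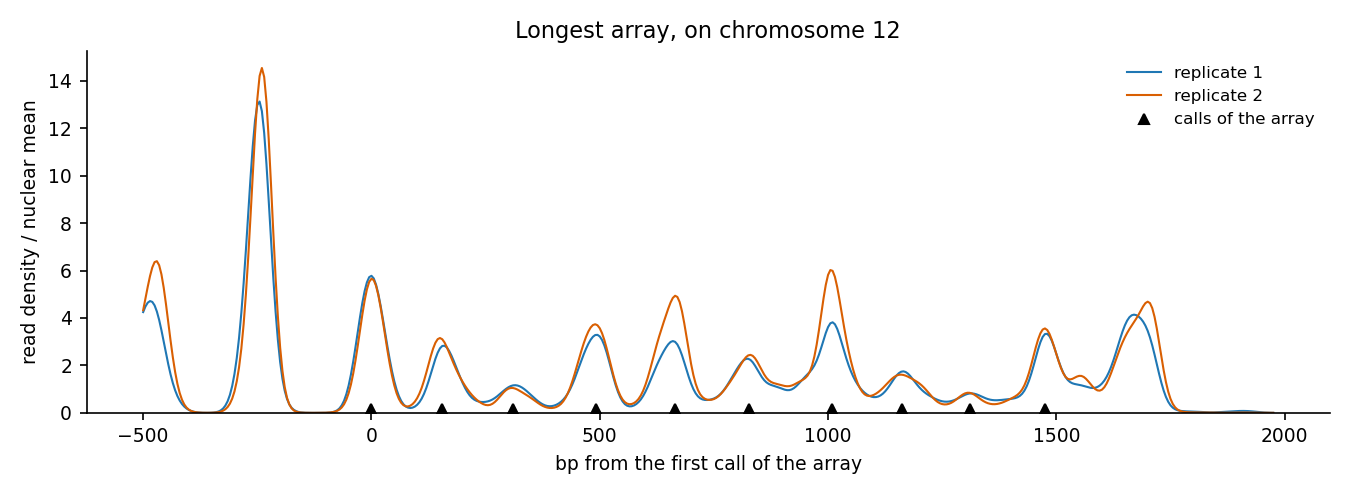
Smoothed read density, as a multiple of each library's nuclear mean, along the array of 10 calls for replicate 1 (blue) and replicate 2 (orange), with distance in bp from its first call. Triangles mark the calls, at each of which both libraries had a maximum within 4 bp, with heights in the sum from 0.829 to 5.72.

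The 4 arrays of 9 calls were recovered less completely. The array on chromosome 12 from 771956 to 773322 (mean distance 170.75 bp) had all 9 calls matched within 20 bp in replicate 1 and 6 in replicate 2. Its neighbour in this list, also on chromosome 12 from 398016 to 399377, had 9 and 8 matched, and its height ran from 0.613 at call 4 to 5.33 at call 7. On chromosome 4, the array from 275259 to 276566 had 8 and 9 calls matched and lay between wide gaps of 557 and 414 bp. Farther along that chromosome, the array from 713138 to 714411 had 7 and 5 matched, and its calls 6 and 7 had none within 20 bp in either library. As a run of 9 it was present only in the sum of the libraries. None of the 4 had every call in both.

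The 3 most even arrays had 6 calls each. The most even one, on chromosome 11 from 104863 to 105652, had distances of 161, 161, 151, 155 and 161 bp (SD 4.60 bp). Call 4, with 326 and 288 reads, was a broad one, with a sharpness of 37.4% and 19.1%, and was matched in neither library. On chromosome 2, the array from 423573 to 424426 had distances of 170, 170, 172, 177 and 164 bp (SD 4.67 bp), and all 6 calls were matched in both libraries. Its calls held 125, 337, 324, 339, 418 and 289 reads in replicate 1 and 98, 256, 190, 226, 378 and 269 in replicate 2. The fewest reads were thus at its first call, next to a gap of 594 bp, in both libraries. The array on chromosome 7 from 967471 to 968253 (SD 4.98 bp) had 5 and 6 of its calls matched, and its last call was its fullest, with 871 and 734 reads.

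The fullest arrays by median reads were nearly completely matched. The array on chromosome 3 from 105801 to 106629 had a median of 1907.5 reads per call in the sum, with 950, 896, 1215, 1016, 772 and 1126 in replicate 1 and 895, 685, 814, 954, 770 and 905 in replicate 2. The next, on chromosome 4 from 384019 to 384857 and on chromosome 2 from 71957 to 72919, had medians of 1841 and 1708 reads. All their calls were matched in both libraries except the last on chromosome 2, which was missed in replicate 2. The sparsest were 2 arrays on chromosome 4, from 819401 to 820225 with a median of 244 reads and from 296553 to 297726 with 319 reads over 8 calls, and 1 on chromosome 16, from 118283 to 119098, with 331 reads. The last of these also had the lowest ratio between the libraries, a log2 of −0.68. Its libraries differed most at call 5, with 984 reads in replicate 1 and 368 in replicate 2.

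Single calls of the arrays recurred in each library as often as any other call. A call in replicate 1 alone lay within 20 bp of 886 of the 957 array calls (92.6%, all calls 91.7%), and a call in replicate 2 within 20 bp of 868 (90.7%, all calls 90.2%). These shares are near the background and say nothing about arrays, and each library is part of the sum. Whole arrays recurred less often, since each call had to be matched. All calls of an array were matched in replicate 1 for 97 arrays, in replicate 2 for 78 and in both for 52 (35.1%). In 25 arrays (16.9%) neither library had every call. By length, 38 of 99 arrays of 6, 9 of 35 of 7, 4 of 9 of 8, 0 of 4 of 9 and the array of 10 were complete in both.

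Each library alone, called by the same rule, gave a different number of arrays. Replicate 1 had 174 arrays with 1131 calls (2.49% of its calls), and replicate 2 had 103 arrays with 665 calls (1.51%). The share of distances in the range was 34.4% in replicate 1 and 31.2% in replicate 2. Of the 174 arrays of replicate 1, 43 (24.7%) overlapped an array of replicate 2, whose arrays covered 0.770% of the genome. Of the 103 arrays of replicate 2, 43 (41.7%) overlapped one of replicate 1, whose arrays covered 1.31%. Most arrays of 1 library were thus not arrays in the other. Of the 148 arrays of the sum, 92 (62.2%) were overlapped by an array of replicate 1 and 64 (43.2%) by one of replicate 2. In turn, 52.9% of the arrays of replicate 1 and 62.1% of those of replicate 2 overlapped one of the 148. The values measured below in the other library belong to these single-library arrays. An array ended wherever 1 distance left the range or 1 call was missed or displaced.

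The calls behind these arrays were mostly there in the other library. Of the calls of arrays chosen in replicate 1, 913 of 1131 (80.7%) had a call of replicate 2 within 20 bp, against 80.2% of all calls. For arrays chosen in replicate 2, 574 of 665 calls (86.3%) had one in replicate 1, against 82.5%. The share followed height. In the lowest of 4 equal classes of height in replicate 1, 59.7% of array calls and 63.6% of other calls were matched, in the middle classes 79.3% and 79.3% and then 85.5% and 85.3%, and in the highest class 91.8% and 92.8%. With replicate 2 as the choosing library, the shares were 69.7% and 68.9% in the lowest class, 83.3% and 81.3%, then 92.7% and 86.6%, and 96.8% and 93.2% in the highest. At like heights the order of array calls and other calls thus varied among classes in one direction, with array calls ahead in each class in the other. All calls were matched in 46 of 174 arrays (26.4%) and in 49 of 103 (47.6%).

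Distances could be measured in the other library only where both neighbouring calls were matched within 20 bp, which by itself limits how far the distances of the libraries can differ. For arrays chosen in replicate 1, this left 627 of 957 distances in replicate 2, with a median of 166 bp and an SD of 11.9 bp, and 582 (92.8%) were still no longer than 185 bp. For arrays chosen in replicate 2, it left 422 of 562 distances in replicate 1, which had a median of 165 bp and an SD of 11.4 bp, and 396 (93.8%) were within the limit. The same distance differed between the libraries by a median of 5 bp in both directions, a value set in part by the matching.

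Reads of the library that took no part in the choice were concentrated at the calls and sparse in the linkers. For each array, the reads within 20 bp of its calls were divided by those within 20 bp of its linker midpoints. In arrays chosen in replicate 1, the median ratio in replicate 2 was 8.60 (interquartile range 5.64 to 13.3), from 178 reads at a call and 21.1 at a linker. In arrays chosen in replicate 2, it was 7.66 in replicate 1 (5.01 to 11.3), from 193 and 26.5 reads. With 1 read kept per position and strand, both for choosing and for measuring, the arrays were called anew. Their median ratio in replicate 2 was 3.19. All 174 and all 103 arrays had a ratio above 1, the lowest being 1.49 and 1.72, as had 99.7% and 99.9% of runs of 3 to 5 calls and 98.1% and 98.5% of pairs. Shorter runs had ratios of the same size, 9.48 and 7.51 for runs of 3 to 5 calls and 9.32 and 7.10 for pairs. The median ratio of arrays was above that of pairs on 5 of 16 chromosomes in one direction and on 9 of 16 in the other. By these medians the order of arrays and pairs thus differed between the directions. Pooled over all runs of a class, the ratio in replicate 2 was 7.88 for arrays, 8.54 for runs of 3 to 5 calls and 6.49 for pairs. In replicate 1 the pooled ratios were 7.28, 6.86 and 6.17. Arrays were thus above pairs in both directions when pooled, while their order with runs of 3 to 5 calls differed. Reads per call in the other library had a median of 299 for arrays and 267 for single calls in replicate 2, and of 336 and 307 in replicate 1, with runs of 3 to 5 calls between them at 286 and 335.

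Aligned at their ends, the arrays chosen in replicate 1 formed a ladder in the reads of replicate 2. Density, limited at each base to 10 times the mean, had maxima at 0, 165, 330, 496, 657 and 824 bp from the end call, at 2.35, 2.56, 2.34, 2.37, 2.22 and 2.03 times the mean. The minima between them rose from 0.484 at 81 bp to 0.645 at 576 bp. In the other direction the maxima lay at 0, 166, 332, 493, 660 and 828 bp, with heights from 2.41 at the end call to 2.05 at the sixth. Each array was entered from both ends, and 112 of the 174 and 71 of the 103 arrays had 6 calls. In these the sixth maximum holds the end calls again, so the lower sixth maximum does not describe a fall along the arrays. Around calls outside arrays, density of the other library was as high at the call itself, 2.36 and 2.28. It reached 1.31 and 1.30 at 172 bp, and 1.15 and 1.16 at 327 bp. These calls needed no neighbour in the range, where 33% of all distances lay. Their contrast with the arrays thus largely follows from the rule and is no separate result. The rule fixed where the choosing library had its calls, so the ladder shows that those positions held reads in the other library too. Just outside the arrays the density fell to 0.433 and 0.456 at −87 bp from the end call, and the maxima at −292 and −291 bp reached 1.19 and 1.10.

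**Figure D4:**
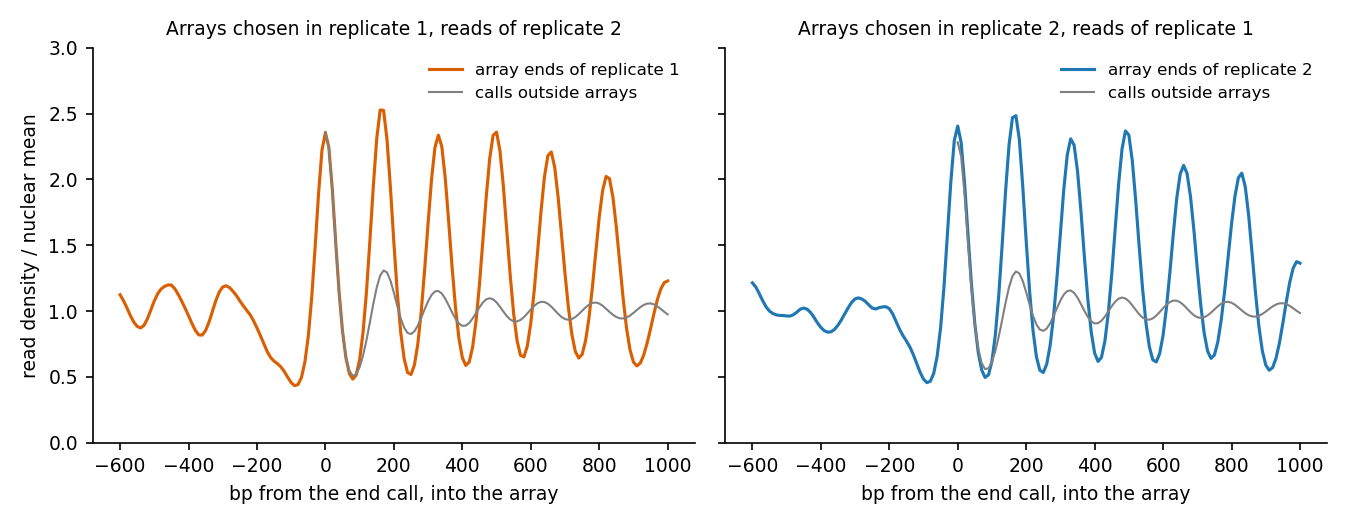
Mean read density of the library not used for the choice, as a multiple of its nuclear mean, against distance from the end call of an array (coloured, positive values run into the array) and from calls outside arrays (grey, both sides averaged). Left, arrays of replicate 1 in reads of replicate 2, and right, the reverse. Maxima of more than 2 times the mean follow every 161 to 168 bp inside the arrays. The second maxima of the grey lines, at 172 bp, reach 1.31 and 1.30, for calls of which the rule required no neighbour in the range.

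The gaps that ended the arrays were close in width to other breaks. The 296 gaps had a median of 287 bp, from 186 to 869 bp, and all 30058 distances over the limit had a median of 283 bp. Gaps of 294 bp or more, with room for another core, made up 48.0% of the array ends and 44.5% of all breaks, and gaps of 400 bp or more 16.2% and 14.7%. At 13 ends (4.39%) the gap passed the limit by 5 bp or less, and at 34 (11.5%) by 15 bp or less. At 21 ends (7.09%) a next call in the range was present but under the minimum height. The wider gap of an array had a median of 326 bp and the narrower one 242 bp. When arrays of 1 library were turned so that the wider gap came first, read counts of the other library showed no common slope from the first call on. The first nucleosome held a median of 14.2 CPM (reads scaled to the nuclear total) in replicate 2, the second 16.5 CPM and the sixth 15.1 CPM, but in replicate 1 the values were 16.4, 15.1 and 13.6 CPM. The sixth was below the second in both. Median sharpness was 55.6% at the first and 52.8% at the sixth call in replicate 2, and 54.2% and 52.3% in replicate 1. It did not fall at every step between them, and the difference was not tested.

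Arrays were found on all 16 chromosomes. Chromosome 11 was the most covered (1.92% of its length, 15 arrays, 2.25 per 100 kb), and chromosome 10 was the least covered (0.657%, 6 arrays). Chromosome 12 had the fewest arrays for its length, 8 or 0.746 per 100 kb. The order was not kept between libraries. On chromosome 11, replicate 1 alone gave 12 arrays and replicate 2 alone gave 6, and on chromosome 10 they gave 11 and 8, both more than the sum. The share of distances in the range ran from 32.0% on chromosome 6 to 34.6% on chromosome 3, with 33.4% on chromosome 11 and 33.6% on chromosome 10. Neighbouring arrays on a chromosome lay a median of 49322.5 bp apart, from 257 to 373701 bp.

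**Figure D5:**
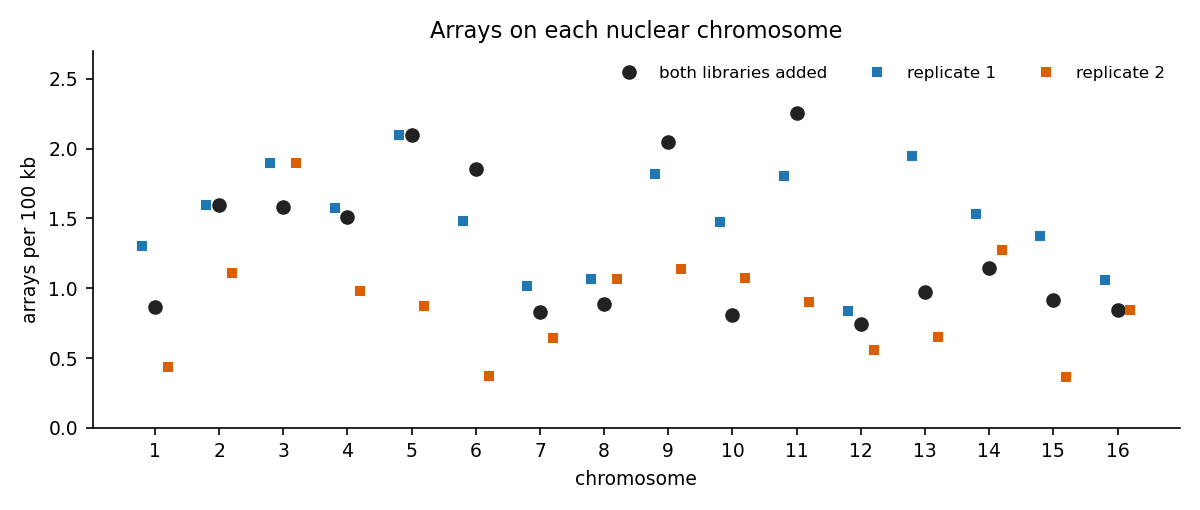
Arrays per 100 kb on each nuclear chromosome for both libraries added (black circles), replicate 1 (blue squares) and replicate 2 (orange squares). The sum ran from 0.746 on chromosome 12 to 2.25 on chromosome 11, and replicate 1 lay at or above replicate 2 on all 16.

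Few arrays lay near the chromosome ends. Within 20 kb of an end, as far as reads reached, there were 2 of the 148 arrays, 0.313 per 100 kb against 1.28 elsewhere, and each library alone also had 2 there. The nearest was 6487 bp from an end. These stretches had fewer calls, 2.65 per kb against 3.79, and fewer distances in the range, 27.6% against 33.2%. With 2 arrays, the difference rests on small counts, and its cause was not tested.

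How many of the 148 arrays were found again depended on the setting, also where the number of arrays stayed within 1.5 times of 148. A mean without the fullest windows gave the same 148, and a common move of 45 bp gave 157, which overlapped 137 of them (92.6%). A Gaussian SD of 15 bp gave 155 arrays, which overlapped 98 of the 148 (66.2%), and an SD of 30 bp also gave 155, which overlapped 89 (60.1%). With 1 read kept per position and strand there were 188, overlapping 65 (43.9%). Over 6 chosen settings, 16 arrays (10.8%) were overlapped by an array in every one. The 6 were the move of 45 bp, both other SDs, 1 read per position and strand, and each library alone. Other settings also left the rule for runs as it was but were not among the 6. Of these, a move of 73 bp overlapped only 9 of the 148 arrays, and the nuclear mean as minimum height overlapped 71. No minimum height and the mean without the fullest windows each overlapped all 148, which was fixed in advance. Both lowered the limit, which only adds calls, and with the exclusion of 147 bp none fits between calls at most 185 bp apart. Among the 16 were the array of 10 calls on chromosome 12 and the even one on chromosome 2 from 423573. A single array was overlapped in none of the 6.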

How the data were processed

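The authors deposited every aligned read of a library on a line of its own, lengthened to 150 bp, with its strand and with no count, score or normalization. The build, sacCer2, is from the submitters' processing notes. The aligner and the treatment of duplicates are not given in the sources used here. Positions are printed as deposited. Whether the first base is 0 or 1 is not stated, so they may be off by 1 bp.

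Read 5′ ends were moved toward the 3′ end by 47 bp (replicate 1) or 42 bp (replicate 2), and both strands and libraries were added and smoothed (Gaussian SD 20 bp). Local maxima were taken from the highest down with an exclusion of 147 bp and a minimum height of 0.5 times the nuclear mean. Libraries were matched within 20 bp, a match that is not one to one. A linker mean under 1 read was set to 1 in ratios. Profiles average over array ends. Arrays named are the 5 with the most calls, the 3 most even, and the 3 fullest and 3 sparsest by median reads. The alternatives changed smoothing, minimum height, linker limit, number of calls, move, windows, matching distance and reads kept per position and strand, or left out a library. Sequence and genes were not used here.

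The members, lists and settings were chosen with earlier results of these data known. The scripts were checked on simulated data. No intervals are given, because any amplified copies of a fragment would be counted as separate reads. The software was matplotlib 3.10.9, numba 0.67.0, pandas 2.3.3, scipy 1.17.1 and numpy 2.4.6 under Python 3.11.15.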

Additional observations from a re-analysis of the deposited data

Results flagged for a closer look

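Reads outside the nuclear chromosomes took no part in the choice of arrays. The mitochondrial chromosome held 43740 reads of both libraries, more than the limit that a count of 0 allows, and there was no control library. Called by the same rule, it gave 19 calls, with no adjacent pair in the range and 0 arrays.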

How the results depend on the processing

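The number of arrays, 148, and the share of calls in them, 2.13%, followed the limits of the rule. Without a minimum height they were 230 and 3.10%, and with the nuclear mean as minimum 71 and 1.20%. Linkers up to 30 bp gave 59 and 0.838%, and linkers up to 50 bp gave 293 and 4.37%. From 5 calls there were 449 (5.48%) and from 8 calls 14 (0.263%). A move of 73 bp, the one that fragments of 147 bp would call for, gave 74 arrays (1.09%), of which 9 overlapped one of the 148. The moves used were 47 and 42 bp. Around array calls and other calls, the strand peaks lay 44 and 45 bp from the call in replicate 1. In replicate 2 they lay at 42 and 43 bp, so the move of replicate 1 was somewhat longer than its peaks. Which arrays were found thus depended strongly on the fragment length assumed. Leaving out 1 library gave 103 to 174 arrays and 1.51% to 2.49%. A mean without the 1 kb windows far above the rest, chosen after seeing the data, gave 148.

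The median distance, 164 bp, was 165 bp with a smoothing SD of 15 bp, 165 bp with 1 read kept per position and strand, 163 bp with the mean as minimum height, 161 and 166 bp with linkers up to 30 and 50 bp, and 165.5 bp with a move of 73 bp. It was 164 bp without either library. The ratio in the other library, 8.60, was 7.66 in the reverse direction, 11.0 with windows of 10 bp, 9.77 with the mean as minimum height and 3.19 with 1 read per position and strand, where full positions are cut to 1 read by construction. For the minimum height and for the reads kept, the arrays were called anew under the setting. The share of array calls matched, 91.6% over both libraries, was 89.8% within 10 bp and 90.2% when reads at the same position and strand were counted as 1 read. Other causes were not tested. No paired analysis was possible because there is 1 group. A library alone has fewer reads than the sum, and whether more depth would keep more arrays was not tested.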
